A study of Mus musculus with 12 samples.

Results

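The transcripts described here are 10 immediate early genes of mouse bone marrow-derived macrophages (BMDMs): the EGR factors Egr1, Egr2 and Egr3, the IER genes Ier2, Ier3 and Ier5, the nuclear receptor Nr4a1, and the mRNA-turnover genes Zfp36, Zfp36l1 and Btg2. They were chosen by symbol, with earlier results of these data known, from the 24421 genes of the count table, and 10 of 10 were in the table and passed the filter on low counts, which left 11468 genes for testing. BMDMs were grown from marrow of wild-type C57BL/6 mice in M-CSF (100 ng/mL) over 5 days, and the medium was renewed on day 3. The 4 groups were DMSO Ova (solvent with soluble ovalbumin), iBET Ova (I-BET151 at 5 µM with ovalbumin), DMSO IC (solvent with ovalbumin opsonized by polyclonal rabbit anti-ovalbumin IgG, an insoluble immune complex) and iBET IC (both), each for 4 hours. DMSO was stated at 5% for all 12 libraries, those with I-BET151 included. Each of 3 mice (A, B and C) was represented once in every group, so a group held 3 libraries and the 12 libraries came from 3 animals. The labels have drug and stimulus added together, whereas the study's methods have the drug added before the stimulus, which leaves their order uncertain, and the age of these animals was not given in the sources used here.

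Immediate early genes are transcribed within minutes of a stimulus without new protein synthesis, because their promoters are held ready by factors such as SRF with its ETS-family partners, and CREB, which MAP kinases and other signals activate. Many of their mRNAs and proteins are short lived. BET proteins read acetylated histones and help to release RNA polymerase II into elongation, and I-BET151 blocks that reading; crosslinking of Fcγ receptors on macrophages by an immune complex activates kinases that lie upstream of several of these genes.

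Promoter sequences are shown for 5 of the genes, because these windows held the response elements for which immediate early genes are known. RefSeq windows on GRCm38.p6 (250 bases before to 50 after the annotated start) were taken by symbol for 7 of 10 genes, in 11 windows. Egr1, Egr3 and Ier2 had no window in this set, and windows on the chromosome of Egr1 were left out of the selection. Motifs were therefore not searched in the promoters of Egr1, Egr3 and Ier2. Each line below gives the 200 bases before the start, read 5′ to 3′ on the strand of the gene. Capitals mark a CArG box (the SRF element) in Egr2, an EGR-type GCGGGGGCG and a CArG box in Zfp36, an NF-kB consensus in Ier3, a CRE (TGACGTCA, the CREB element) in Btg2, and an SP1 match (GGGGCGGGG on the other strand) followed by an overlapping pair of EGR-type and SP1 matches in Nr4a1. Copies of the short CRE letters TGACG outside a full CRE, and an NF-kB match of Nr4a1 that ran across its start, were left in lower case.
Egr2, chr10:67537669-67537868, plus strand: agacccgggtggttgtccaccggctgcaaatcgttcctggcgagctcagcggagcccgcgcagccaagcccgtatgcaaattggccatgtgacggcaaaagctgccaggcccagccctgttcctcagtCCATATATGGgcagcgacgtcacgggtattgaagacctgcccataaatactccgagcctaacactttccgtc
Zfp36, chr7:28379229-28379428, minus strand: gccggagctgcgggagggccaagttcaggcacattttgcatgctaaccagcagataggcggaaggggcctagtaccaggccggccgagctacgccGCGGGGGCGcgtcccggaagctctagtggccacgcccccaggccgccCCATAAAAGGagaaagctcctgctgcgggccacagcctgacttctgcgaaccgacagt
Ier3, chr17:35821513-35821712, plus strand: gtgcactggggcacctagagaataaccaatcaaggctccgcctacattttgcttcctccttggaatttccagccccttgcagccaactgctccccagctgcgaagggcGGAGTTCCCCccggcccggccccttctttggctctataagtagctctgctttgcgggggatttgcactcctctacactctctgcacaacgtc
Btg2, chr1:134079156-134079355, minus strand: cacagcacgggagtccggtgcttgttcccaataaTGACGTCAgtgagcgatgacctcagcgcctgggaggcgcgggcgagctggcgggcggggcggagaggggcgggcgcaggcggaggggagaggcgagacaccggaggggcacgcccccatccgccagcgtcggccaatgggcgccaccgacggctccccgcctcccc
Nr4a1, chr15:101266646-101266845, plus strand: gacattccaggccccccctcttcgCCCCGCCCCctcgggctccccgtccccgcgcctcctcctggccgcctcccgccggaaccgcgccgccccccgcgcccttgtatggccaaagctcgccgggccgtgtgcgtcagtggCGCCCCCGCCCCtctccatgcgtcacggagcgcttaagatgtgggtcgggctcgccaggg

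The CArG box of Zfp36 lay 58 to 49 bases before the start, and that of the Egr2 window shown 72 to 63 bases before it. All motifs were searched on both strands. A CArG box was present in 1.64% of 32544 RefSeq windows of all genes and in 4 of the 5 Egr2 windows, of which 3 overlap and hold the same box, so that these windows held 2 distinct boxes. The CRE of Btg2 lay 166 to 159 bases before the start, and 1.8% of all windows held one. The EGR-type letters of Zfp36 (105 to 97 bases before) and of Nr4a1 (60 to 52 bases before) were in 2.93% of windows and the SP1 letters in 11.53%. An NF-kB consensus, present in 4.53% of windows, lay 92 to 83 bases before the start of Ier3 and from 3 bases before to 7 after the start of Nr4a1. The shorter CRE letters TGACG, which 20.91% of windows held at least once, were present in 4 copies in Nr4a1 and in 2 copies in each of the 3 overlapping Egr2 windows. Among the remaining windows, the Egr2 window with the other CArG box also held SP1 letters, that of Zfp36l1 held an AP-1 match (TGANTCA, 129 to 123 bases before; 7.79% of windows), and that of Ier5 and the most upstream Egr2 window held none of the motifs. GCGTGGGCG and the ETS letters CCGGAAGT were searched too and were in 0.62% and 3.92% of windows. A match is a description of the letters and not evidence of a bound factor.

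Library totals lay between 7.55 M and 17.4 M counts. The ribosomal precursor Rn45s accounted for 1.41% to 7.83% of them in 11 libraries and for 77.4% in the library of mouse A in DMSO Ova, where 1.77 M counts remained for other genes. Removal of that library ended 1 member call, that of Nr4a1 for iBET in Ova, which is given below. The same removal added 1 member call, that of Ier3 for IC in iBET (edgeR adjusted p = 0.0125). It called 56 of 11667 genes for IC in iBET and 3378 for iBET in Ova, against 40 and 3593 of 11468 with all libraries. The BMDM label was checked on 8 macrophage markers in the table (Csf1r and Lyz2 among them), whose summed level was 6325 to 8484 CPM (counts scaled to a common library size) over the 12 libraries, against 9.76 to 56.3 CPM for 7 neutrophil markers, 6.96 to 22.8 CPM for 5 dendritic cell markers, at most 0.194 CPM for 5 lymphocyte markers and at most 1.54 CPM for 3 stromal markers. The 4 erythroid markers and 2 mast cell and basophil markers were at 0 in all libraries. CPM values throughout are TMM-normalized and compare 1 gene across libraries. RPKM divides them further by the exon length and is used where genes are compared with each other.

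At 4 hours most of these transcripts changed with I-BET151. Without IC, 7 of the 10 genes rose and 1 fell with iBET, read against 17.1% of all tested genes called higher and 14.2% called lower. With IC, 6 rose and 1 fell, read against 19% called higher and 15.8% called lower. Calls required an adjusted p below 0.05 in edgeR's quasi-likelihood test with Benjamini-Hochberg adjustment over all 11468 genes. The 10 genes had a median log2 fold change of 1.14 in Ova and 1.22 in IC, where that of all tested genes was 0.02 and -0.00. Egr1 had the 27th highest log2 fold change of 11468 genes in Ova and Ier3 the 27th in IC, and Egr2 stood among the lowest, at 82nd and 41st from the bottom. In these bulk libraries, a changed amount of RNA per cell and a changed share of cells that carry a transcript cannot be told apart. The levels are also relative to the other transcripts of a library, so a change in total RNA per cell is not seen in them.

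**Figure D1:**
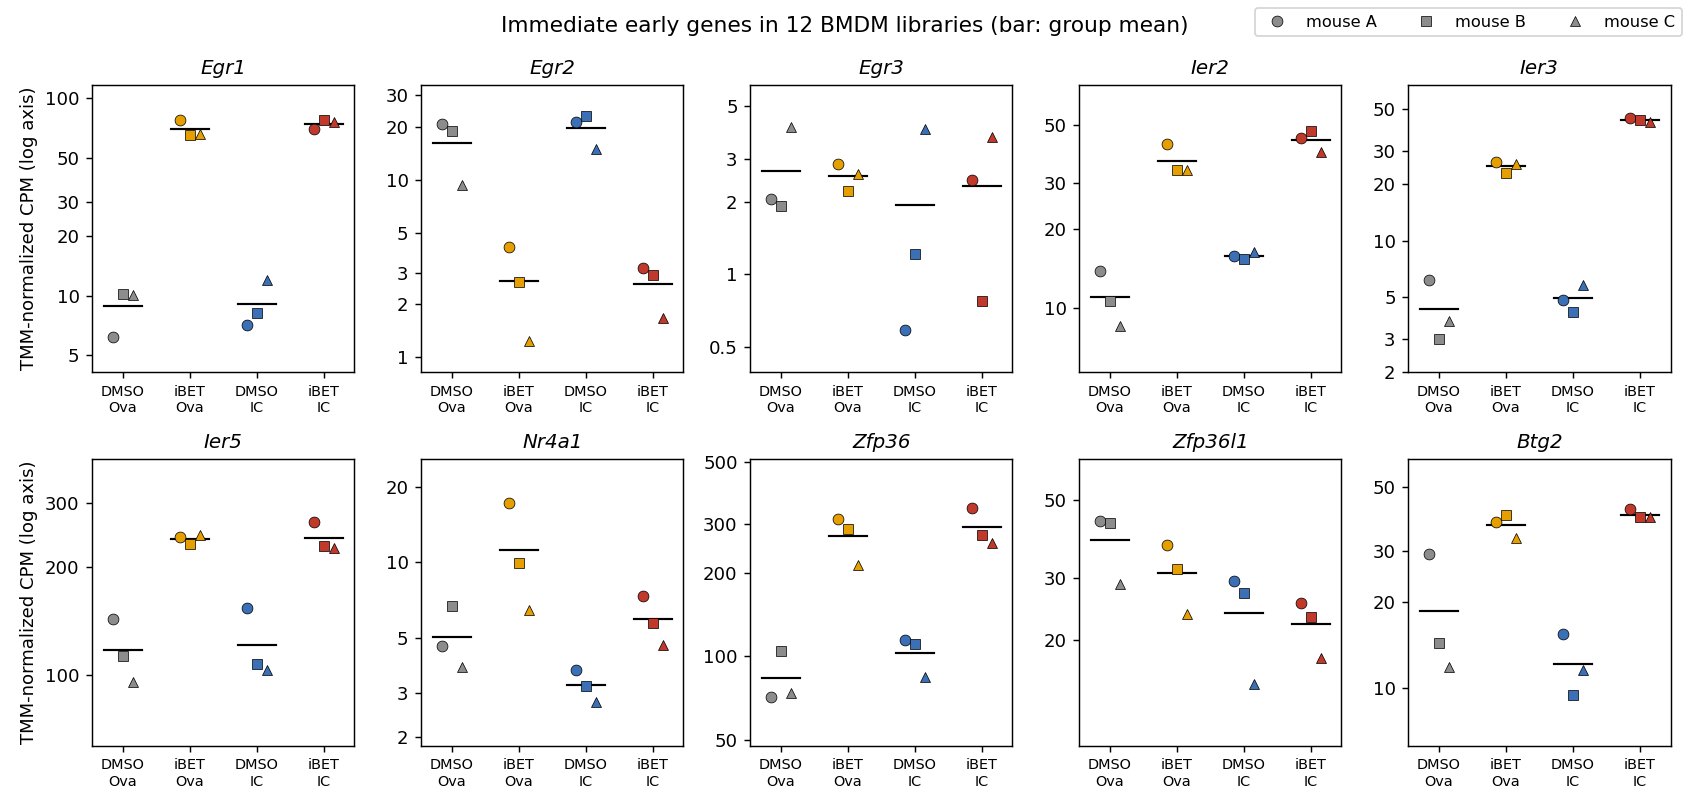
TMM-normalized CPM (log axis, its range set for each gene) of the 10 genes in the 4 groups, 1 symbol per library with the shape giving the mouse, and a bar at the group mean. Egr1 sat between 6.16 and 12.0 CPM in the 6 DMSO libraries and between 65.5 and 77.9 CPM in the 6 iBET libraries, and Egr2 ran the other way, from 9.37 to 22.9 CPM down to 1.24 to 4.17 CPM.

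Egr1, a zinc-finger transcription factor that binds GC-rich promoter elements, had the largest rise of the 10 genes in Ova. Its level in mice A, B and C was 6.16, 10.2 and 10.1 CPM in DMSO Ova and 77.9, 65.5 and 66.1 CPM in iBET Ova. With IC it was 7.07, 8.14 and 12.0 CPM in DMSO and 70.2, 77.4 and 75.5 CPM in iBET. Every iBET library lay above every DMSO library, and the groups differing only in IC overlapped. The change was 7.40-fold in Ova (95% interval 5.50 to 9.96; log2 fold change 2.89, SE 0.20; edgeR adjusted p = 1.32e-06). In IC it was 8.19-fold (6.14 to 10.9; log2 fold change 3.03, SE 0.19; edgeR adjusted p = 5.35e-07).

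Egr2, the EGR factor also known as Krox20, was the member that fell. It was at 20.5, 18.8 and 9.37 CPM in DMSO Ova and at 4.17, 2.65 and 1.24 CPM in iBET Ova. With IC it was at 21.2, 22.9 and 14.9 CPM in DMSO and at 3.20, 2.91 and 1.68 CPM in iBET. The iBET and DMSO libraries did not overlap, and mouse C gave the lowest value in 4 of 4 groups. Egr2 fell by 2.49 on the log2 scale in Ova (SE 0.41, edgeR adjusted p = 0.000808), which makes the DMSO level 5.62-fold the iBET level, and fell by 2.87 in IC (SE 0.40, edgeR adjusted p = 0.000210), a ratio of 7.31. The call in Ova was lost when the 4 libraries of mouse B were left out (log2 fold change -2.29, edgeR adjusted p = 0.0609) and held in the other 25 of 26 alternatives. The promoter window shown for Egr2 and that of Zfp36 both carried a CArG box. The 2 genes changed in opposite directions, and whether the box had a part in either change was not tested.

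Egr3, the third EGR factor of the list, was the least abundant member, with 4 to 49 reads per library, and its change was not resolved at this depth. It was at 2.05, 1.92 and 4.06 CPM in DMSO Ova, 2.86, 2.21 and 2.59 CPM in iBET Ova, 0.589, 1.21 and 4.00 CPM in DMSO IC and 2.46, 0.775 and 3.72 CPM in iBET IC, and the 4 groups overlapped. The log2 fold change with iBET was -0.14 in Ova (95% interval -1.53 to 1.25) and 0.25 in IC (-1.14 to 1.64), so that changes of more than 2-fold in either direction lay inside both intervals.

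The make-up of the EGR transcripts differed between the drug groups. Per exon length, the summed level of Egr1, Egr2, Egr3 and Egr4 was 7.35 ± 1.24 RPKM (SD, n = 3) in DMSO Ova and 16.9 ± 1.99 in iBET Ova, and 8.26 ± 0.49 in DMSO IC and 17.9 ± 0.62 in iBET IC. Egr1 made up 27.7% ± 10.3 (SD, n = 3) of that sum in DMSO Ova and 92.0% ± 1.83 in iBET Ova, and 24.6% ± 7.66 in DMSO IC and 92.8% ± 1.55 in iBET IC. Egr2 took 63.4% ± 15.4 in DMSO Ova and 4.53% ± 2.05 in iBET Ova, and 69.8% ± 13.2 in DMSO IC and 4.29% ± 1.43 in iBET IC. Egr2 was thus the most abundant EGR transcript per length in 6 of 6 DMSO libraries and Egr1 in 6 of 6 iBET libraries. Egr4 had at most 1 read in any library and was not tested.

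**Figure D2:**
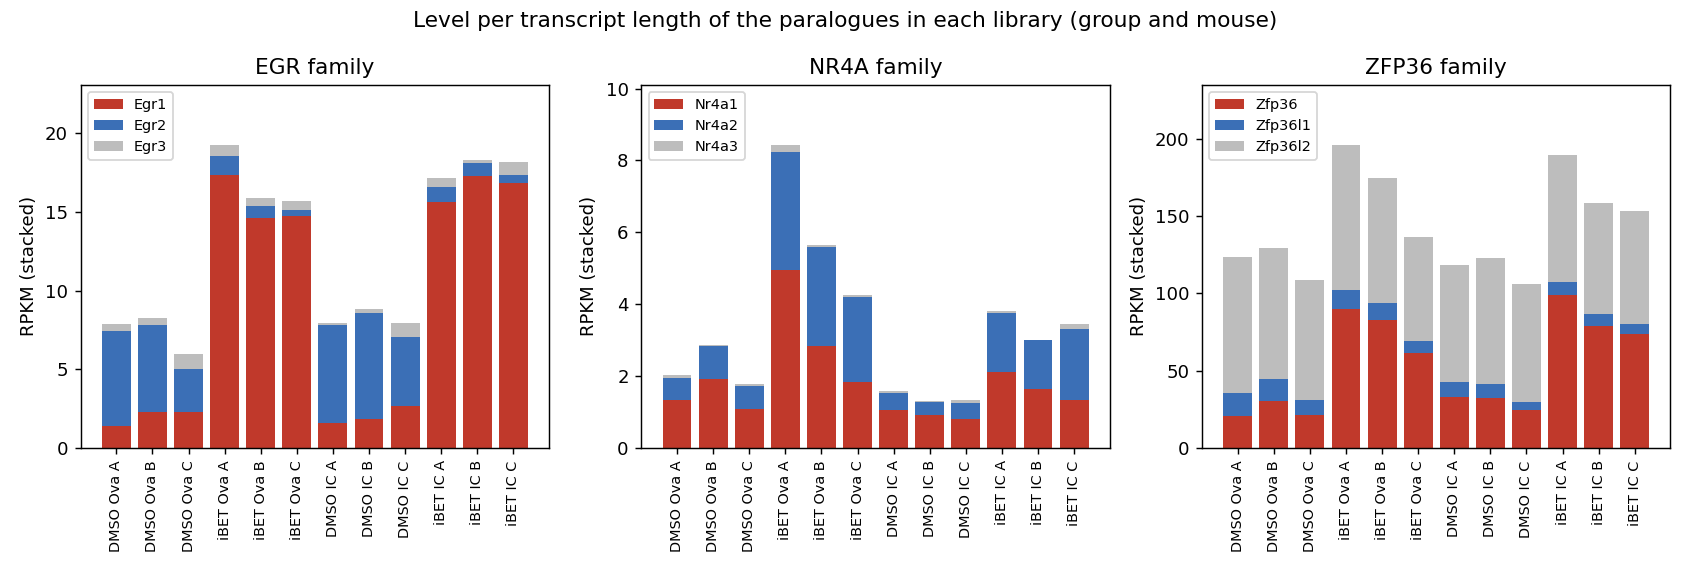
Stacked RPKM (CPM per kilobase of exon, with the exons of all annotated transcripts merged) of the EGR, NR4A and ZFP36 family members in each of the 12 libraries, named by group and mouse. Egr2 is the largest part of the EGR bar in the 6 DMSO libraries and Egr1 in the 6 iBET libraries, the NR4A bar is highest in the iBET Ova library of mouse A at 8.42 RPKM, and in the ZFP36 family Zfp36 grew from 19.8% of the sum in DMSO Ova to 46.1% in iBET Ova beside Zfp36l2.

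Nr4a1 (Nur77), an orphan nuclear receptor induced by many signals in myeloid cells, was higher with iBET in 3 of 3 mice under either stimulus, but its call depended on the libraries used. It was at 4.62, 6.67 and 3.81 CPM in DMSO Ova and at 17.4, 9.93 and 6.43 CPM in iBET Ova, and these groups overlapped, since the lowest iBET library lay below the highest DMSO library. With IC it was at 3.70, 3.19 and 2.76 CPM in DMSO and at 7.37, 5.72 and 4.67 CPM in iBET, with no overlap. Nr4a1 rose 2.20-fold in Ova (95% interval 1.30 to 3.73; edgeR adjusted p = 0.0255). The adjusted p became 0.0566 once mouse A was left out of DMSO Ova, 0.119 once mouse C was, and 0.138 once mouse A was left out of iBET Ova, the last with a log2 fold change of 0.67 in place of 1.14. Over 25 alternatives it ranged from 0.00600 to 0.155 and the call held in 19. In IC the log2 fold change was 0.89 (SE 0.35), with an edgeR adjusted p of 0.0689, and of 0.0132 with mouse as a block (0.0103 to 0.241 over 25 alternatives). A test that missed the threshold in IC and passed it in Ova is no test of the difference between them, and the interaction for Nr4a1 was -0.25 (95% interval -1.33 to 0.84).

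Its paralogue Nr4a2 rose by a log2 fold change of 1.87 (SE 0.24, edgeR adjusted p = 9.74e-05) in Ova and 1.92 (SE 0.24, edgeR adjusted p = 8.77e-05) in IC. Nr4a2 grew from 33.4% to 47.9% of the summed NR4A level per length in Ova and from 30.8% to 48.6% in IC, and the NR4A sum was 2.22 ± 0.57 RPKM (SD, n = 3) in DMSO Ova, 6.11 ± 2.12 in iBET Ova, 1.41 ± 0.16 in DMSO IC and 3.42 ± 0.40 in iBET IC. Nr4a3 did not pass the filter on low counts and took at most 5.95% of the NR4A sum in any library.

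The 3 IER genes rose under both stimuli. Ier3 (IEX-1), a small protein known as a modulator of apoptosis and an NF-kB target, was at 6.16, 2.99 and 3.73 CPM in DMSO Ova and 26.1, 22.9 and 25.5 CPM in iBET Ova. With IC it was at 4.80, 4.18 and 5.81 CPM in DMSO and 44.9, 43.7 and 42.9 CPM in iBET. The 3 iBET IC libraries lay above the 3 iBET Ova libraries, and all 6 lay above every DMSO library. The change with iBET was 6.61-fold in Ova (95% interval 4.88 to 8.94; edgeR adjusted p = 2.19e-06) and 8.86-fold in IC (6.71 to 11.7; edgeR adjusted p = 3.03e-07).

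Ier2, a nuclear immediate early protein, was at 13.9, 10.7 and 8.54 CPM in DMSO Ova and 42.2, 33.5 and 33.5 CPM in iBET Ova. With IC it was at 15.8, 15.4 and 16.3 CPM in DMSO and 44.5, 47.4 and 39.4 CPM in iBET. The DMSO libraries lay below every iBET library, and the rise was 3.49-fold in Ova (95% interval 2.72 to 4.48; edgeR adjusted p = 9.63e-06) and 2.76-fold in IC (2.19 to 3.48; edgeR adjusted p = 2.18e-05). Ier5, known for its link to heat shock factor activity, started far higher, at 143, 113 and 95.6 CPM in DMSO Ova and 154, 108 and 104 CPM in DMSO IC. It reached 242, 232 and 246 CPM in iBET Ova and 266, 228 and 226 CPM in iBET IC, a rise of 2.06-fold (1.60 to 2.66; edgeR adjusted p = 0.000590) and 1.97-fold (1.54 to 2.54; edgeR adjusted p = 0.000707). Per exon length, Ier5 was the most abundant of the 3 IER genes in each group, at 35.8 ± 7.36 RPKM (SD, n = 3) in DMSO Ova, where Ier2 stood at 7.24 ± 1.76 and Ier3 at 3.80 ± 1.47. In iBET IC Ier3 stood at 38.8 ± 0.91 RPKM, above Ier2 at 28.8 ± 2.64.

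Zfp36 (tristetraprolin), which binds AU-rich elements of cytokine mRNAs and brings the CCR4-NOT deadenylase to them, rose with iBET. It was at 71.4, 104 and 73.9 CPM in DMSO Ova and 312, 288 and 213 CPM in iBET Ova, and at 114, 111 and 84.3 CPM in DMSO IC and 343, 273 and 256 CPM in iBET IC. The lowest iBET library was above the highest DMSO library. The rise was 3.23-fold in Ova (95% interval 2.41 to 4.34; edgeR adjusted p = 5.16e-05) and 2.82-fold in IC (2.11 to 3.77; edgeR adjusted p = 9.89e-05).

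Zfp36l1, a paralogue that binds the same elements, had another pattern. It was at 43.7, 43.0 and 28.9 CPM in DMSO Ova and 37.3, 31.8 and 23.8 CPM in iBET Ova, and at 29.5, 27.3 and 15.1 CPM in DMSO IC and 25.5, 23.3 and 17.9 CPM in iBET IC. The groups compared overlapped, and in 4 of 4 groups mouse A was highest and mouse C lowest. The log2 fold change with iBET was -0.30 in Ova (95% interval -0.87 to 0.28; edgeR adjusted p = 0.429) and -0.10 in IC (-0.67 to 0.47; edgeR adjusted p = 0.791). With mouse as a block the value in Ova was -0.32 with an edgeR adjusted p of 0.0471 (0.0393 to 0.763 over 26 alternatives). Per exon length Zfp36l2 was the largest of this family in DMSO Ova, at 69.5% of the ZFP36 sum with Zfp36 at 19.8% and Zfp36l1 at 10.6%. In iBET IC Zfp36 made up 48.3% to 52.1%, with Zfp36l2 at 45.5% and Zfp36l1 at 4.43% on average. The length used for Zfp36, 3470 bases, merges all its annotated exons, equals its gene span and reaches upstream of its RefSeq start. A shorter transcript would raise the share of Zfp36, so its order against Zfp36l2 depends on the length used. The annotation places a second gene on the strand opposite Zfp36 (Gm44710) and Zfp36l1 (Gm26669), and the use of strand in counting was not stated, so reads of these pairs could not be told apart if strand was not used.

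Btg2, an antiproliferative protein that also binds the deadenylase, was at 29.3, 14.4 and 11.9 CPM in DMSO Ova and 37.8, 39.9 and 33.4 CPM in iBET Ova. With IC it was at 15.4, 9.46 and 11.5 CPM in DMSO and 41.8, 39.2 and 39.3 CPM in iBET. The drug groups did not overlap, although mouse A in DMSO Ova, the library with the fewest counts outside Rn45s, came nearest to the iBET libraries. Btg2 rose 2.20-fold in Ova (95% interval 1.47 to 3.31; edgeR adjusted p = 0.00727) and 3.29-fold in IC (2.22 to 4.90; edgeR adjusted p = 0.000380). The call in Ova was lost without the libraries of mouse B (adjusted p = 0.168) or of mouse C (0.0895), and held in 24 of 26 alternatives. Its share of the summed Btg1, Btg2 and Btg3 level per length was 12.1% in DMSO Ova, 21.0% in iBET Ova, 6.68% in DMSO IC and 19.8% in iBET IC, where Btg1 held most of the rest.

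**Figure D3:**
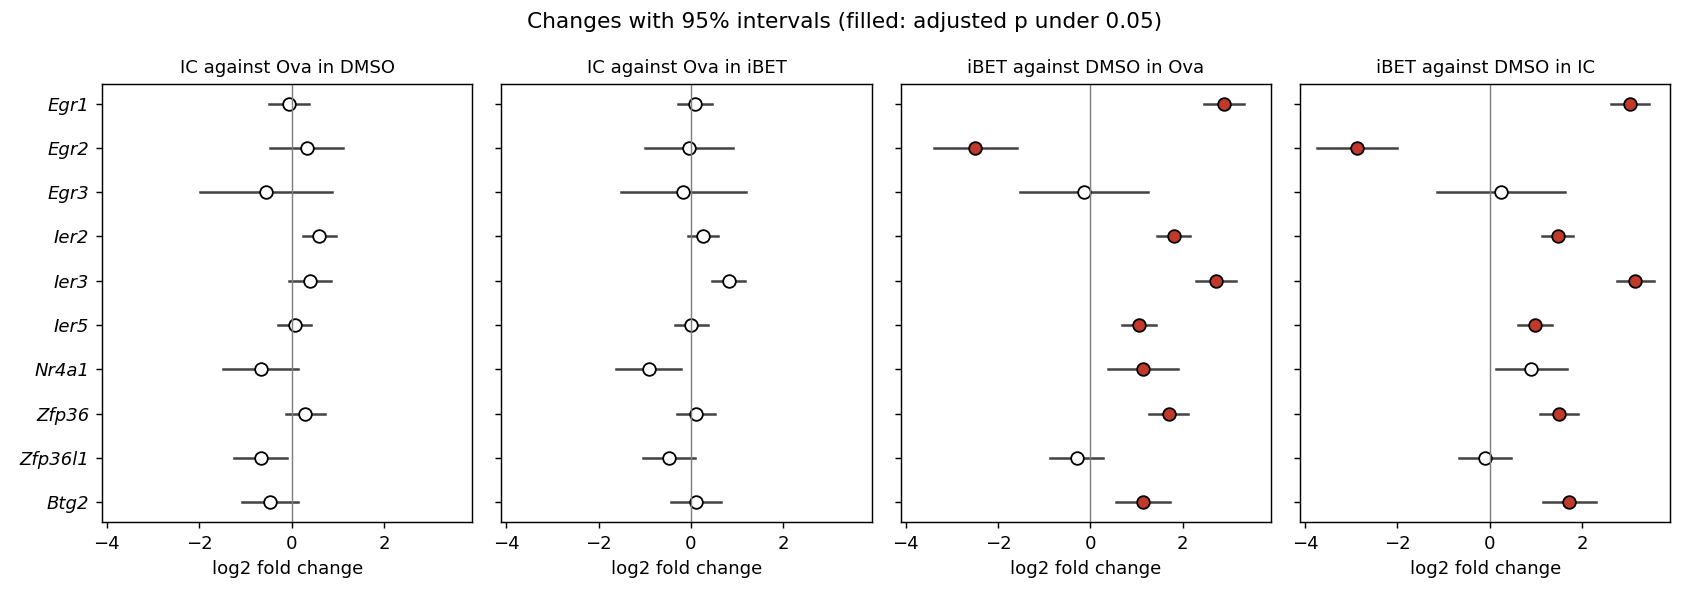
Log2 fold change of each gene (point) with its 95% interval (line) in the 4 comparisons, filled where the adjusted p in edgeR was under 0.05. No point is filled for IC against Ova, and 8 and 7 points are filled for iBET against DMSO in Ova and in IC, all to the right of 0 but that of Egr2.

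At 4 hours, the main edgeR fit, with 1 term per group and no mouse block, called no member for IC in DMSO or in iBET. Some alternatives called Ier2 or Zfp36l1 in DMSO, or Ier3 in iBET. For Ier2 and Ier3 these included edgeR fits without the block, as the closing section lists. In DMSO, edgeR called 0 of the 10 genes, against 1.22% of all tested genes, and DESeq2 called 0, against 2.29%. Of the members, 2 (Ier2 and Zfp36l1) had an unadjusted edgeR p under 0.05, as did 11.7% of all tested genes. With mouse as a block 1 member was called, Zfp36l1, against 2.75% of all genes. In iBET, edgeR called 0 of the 10 genes, against 0.349% of all tested genes, and DESeq2 called 1 (Ier3), against 1.04%. An unadjusted edgeR p under 0.05 was found for 2 members (Ier3 and Nr4a1) and for 7.5% of all tested genes. With mouse as a block, Ier3 was called, against 0.741% of all genes. For iBET against DMSO the block called 9 members in Ova, with Zfp36l1 added, and 8 in IC, with Nr4a1 added, where it called 38.3% and 42.1% of all genes in either direction.

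Of the members, Ier2 came nearest to a call for IC in DMSO. Its 3 DMSO IC libraries, at 15.4 to 16.3 CPM, lay above its 3 DMSO Ova libraries, at 8.54 to 13.9 CPM, and the log2 fold change was 0.60 (SE 0.17, edgeR adjusted p = 0.125). In iBET the same comparison gave 0.26 (95% interval -0.06 to 0.59). Zfp36l1 had a log2 fold change of -0.67 with IC in DMSO (SE 0.27, edgeR adjusted p = 0.333), and of -0.72 with mouse as a block (edgeR adjusted p = 0.00712; 0.000152 to 1.00 over 26 alternatives), its level being lower with IC in 3 of 3 mice. In iBET it was -0.48 (95% interval -1.04 to 0.09) in the main fit. With mouse as a block it was also -0.48 (SE 0.12, edgeR adjusted p = 0.108), and the level was lower with IC in 3 of 3 mice.

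Ier3 was the member nearest to a call for IC in iBET, with a log2 fold change of 0.82 (SE 0.16), a ratio of 1.76 (95% interval 1.38 to 2.26), higher in 3 of 3 mice with no overlap. Its edgeR adjusted p was 0.0680, and 0.0138 with mouse as a block, and over 26 alternatives it ranged from 1.94e-05 to 1.00 and was under the threshold in 10. In DMSO the Ier3 difference was 0.40 (95% interval -0.06 to 0.86). Nr4a1 was lower with IC in 3 of 3 mice in both drug states, with a log2 fold change of -0.67 in DMSO (95% interval -1.48 to 0.14; edgeR adjusted p = 0.557) and -0.92 in iBET (-1.63 to -0.21; edgeR adjusted p = 0.473). For Egr1, the member with the largest drug response in Ova, the IC differences were -0.06 (-0.49 to 0.38) and 0.09 (-0.28 to 0.46), so that a change of 1.5-fold lay outside both intervals. The IC comparison in DMSO and the iBET comparison in Ova share the 3 DMSO Ova libraries, and the other neighbouring pairs share a group in the same way, so these values are given side by side and not as independent of each other.

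The interaction, which is the IC difference in iBET minus that in DMSO, was called for 0 of the 10 members by edgeR, by DESeq2 and with the block, and 0 members had an unadjusted p under 0.05. It was called for 0% of all tested genes, with 292 of the 11468 (2.55%) at an unadjusted p under 0.05 in edgeR, and DESeq2 called 4 genes (0.0239%). The largest members' values were 0.58 for Btg2 (95% interval -0.23 to 1.39) and 0.42 for Ier3 (-0.16 to 1.01), and on the lower side -0.38 for Egr2 (-1.62 to 0.86). In this main fit, without the mouse block, the intervals of Egr2, Egr3, Ier3, Nr4a1, Zfp36l1 and Btg2 reached past 2-fold on at least 1 side. That fit thus did not resolve a difference of that size between their drug responses in Ova and in IC. Those of Egr1, Ier2, Ier5 and Zfp36 stayed inside it. With mouse as a block the interaction was 0.24 (SE 0.17) for Zfp36l1, -0.11 (SE 0.34) for Nr4a1 and 0.43 (SE 0.25) for Ier3. It was -0.39 (SE 0.30) for Egr2, 0.37 (SE 0.64) for Egr3 and 0.57 (SE 0.29) for Btg2. These SE were below those of the main fit, whose intervals do not use the pairing.

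The paralogues of the members were counted in the same fit, and 7 of 9 passed the filter. Counts for them and for the lists that follow are read against the same shares of all tested genes as those of the members, which for iBET were 17.1% higher and 14.2% lower in Ova and 19% and 15.8% in IC, and for IC were 1.22% called in DMSO and 0.349% in iBET, with 11.7% and 7.5% at an unadjusted p under 0.05. With iBET 3 rose and 0 fell in either stimulus, namely Nr4a2, Ier5l and Tob1, a BTG-family antiproliferative protein whose log2 fold change was 1.56 in Ova and 1.97 in IC. Zfp36l2, Btg1, Btg3 and Tob2 were not called. With IC, edgeR called 0 of the 7 in DMSO, with 4 at an unadjusted p under 0.05, DESeq2 called 1 and the block fit called 1 (Tob1, lower). In iBET, edgeR, DESeq2 and the block fit each called 0, with 1 at an unadjusted p under 0.05.

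A list of 32 other immediate early genes, chosen like the members with earlier results of these data known, was split more evenly. With iBET, 12 rose and 7 fell in Ova, and 12 rose and 10 fell in IC, with a median log2 fold change of 0.39 in both where all tested genes had 0.02 and -0.00. The largest rise was that of Jund, an AP-1 factor, at 1.68 in Ova and 1.75 in IC. The largest fall in Ova was that of the AP-1 factor Fosl1, at -2.43, and in IC that of the growth regulator Myc, at -2.27. With IC, 1 of the 32 rose in DMSO (Maff, a small MAF factor, log2 fold change 1.14, edgeR adjusted p = 0.0443), where DESeq2 called 4 and 13 had an unadjusted p under 0.05. In iBET 0 were called by edgeR, where DESeq2 called 2 and 10 had an unadjusted p under 0.05. With mouse as a block 4 were called in DMSO and 0 in iBET.

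**Figure D4:**
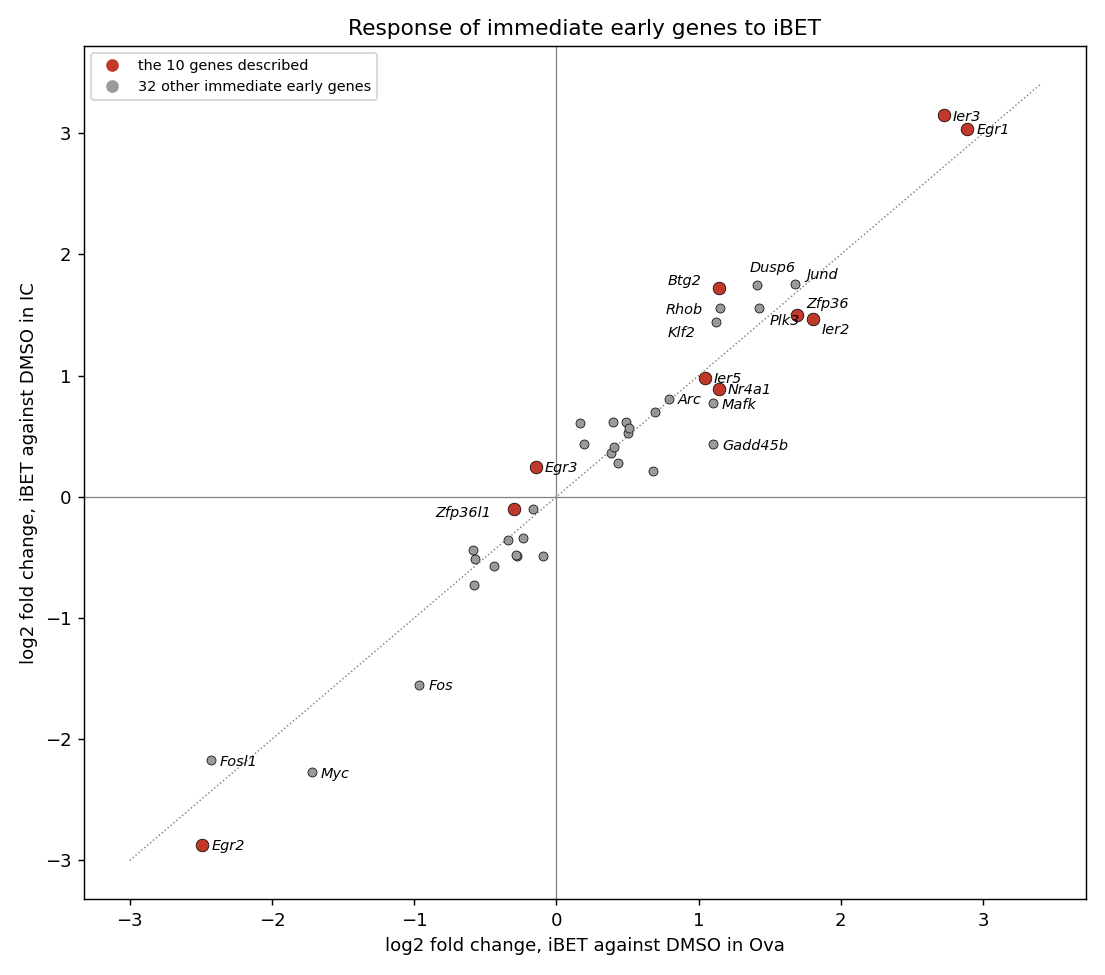
Log2 fold change with iBET in Ova (x) and in IC (y) for the 10 genes described and 32 other immediate early genes, with names where the change exceeded 0.8 in either direction and for the 10 genes, and a dotted line of equal change. Ier3 and Egr1 stand at the upper right end near 3, and Egr2 stands at the lower left end below Fosl1 and Myc.

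Transcripts of the factors that act upstream of immediate early promoters changed in both directions. Of 10 such genes, 3 rose (Elk1, Elk4 and Creb1) and 2 fell (Elk3 and Atf1) with iBET in Ova, and the same 5 genes did so in IC. With mouse as a block Ets2 was also called higher with iBET, in Ova (edgeR adjusted p = 0.00831) and in IC (edgeR adjusted p = 0.0418). The largest rise was that of Elk1 in IC, at 0.79, and the largest fall was that of Elk3, an ETS-family partner of SRF, at -2.18 in Ova and -2.26 in IC. Srf itself was not called, with a log2 fold change of 0.22 in Ova and 0.10 in IC. Of 4 partners of EGR and NR4A proteins, the corepressor Nab2 rose (1.04 in Ova and 0.91 in IC), its paralogue Nab1 fell (-0.49 and -0.51), and the retinoid X receptor genes Rxra and Rxrb were not called. With mouse as a block Rxra was called lower in Ova (edgeR adjusted p = 0.0195). With IC, edgeR and DESeq2 called 0 of the 10 upstream factors, of the 4 partners and of the 11 CCR4-NOT genes described next, in DMSO and in iBET. Their counts at an unadjusted p under 0.05 were 3, 1 and 3 in DMSO and 2, 0 and 1 in iBET, and the block fit called 1 upstream factor in DMSO (Ets2).

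The CCR4-NOT deadenylase is the complex that Zfp36 and Btg2 recruit. Of 11 of its genes in the table, 2 rose (Cnot4 and Cnot11) and 1 fell (Cnot6) with iBET in Ova, and 2 rose (Cnot4 and Cnot11) with 0 called lower in IC, with a median log2 fold change of 0.03 and -0.00. DESeq2 called 2 lower in Ova. The share of these genes called, 3 of 11 in Ova, lay near that of all tested genes. Of 14 mRNAs known as Zfp36 targets, Ier3 and Zfp36 itself among them, 10 passed the filter. With iBET, 3 rose in Ova (Ier3, Zfp36 and Tnf) and 4 in IC (the same 3 and Ccl3), with 0 called lower in either, while with mouse as a block 5 rose and 1 fell in Ova. With IC, 2 rose in DMSO (Cxcl2 and Tnf) and 4 in iBET (Il1b, Cxcl1, Cxcl2 and Tnf), against 1.22% and 0.349% of all tested genes called. With mouse as a block 5 rose in DMSO and 7 in iBET, and DESeq2 called 5 and 6 higher. Genes named in this and the preceding paragraph because a count was 5 or lower, and Srf, were named after their values were seen.

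The members lie on 9 chromosomes in GENCODE vM21 on GRCm38. Egr1 is at chr18:34859823-34864984 on the plus strand, Egr2 at chr10:67535475-67542188 (plus), Egr3 at chr14:70077203-70082614 (plus), Nr4a1 at chr15:101254269-101274795 (plus) and Ier3 at chr17:35821684-35822923 (plus). Ier2 is at chr8:84661331-84662852 on the minus strand, Ier5 at chr1:155096361-155099636 (minus), Btg2 at chr1:134075170-134079120 (minus), Zfp36 at chr7:28376784-28380253 (minus) and Zfp36l1 at chr12:80107754-80113013 (minus). All 10 are protein coding and compact. With the exons of all annotated transcripts merged, Ier2, Ier5 and Zfp36 each have 1 exon block. A single merged block does not mean that every transcript lacks an intron. Nr4a1 spans 20527 bases with 10 blocks, and the other spans lie between 1240 and 6714 bases.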

How the data were processed

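Gene counts of 12 BMDM libraries (4 groups, 3 mice) were analysed. The authors made the deposited counts, whole numbers of reads per gene, from libraries of a SMARTer Pico total RNA kit by trimming (Trim Galore), alignment to mm10 (HISAT2) and featureCounts. The annotation, strand setting and treatment of multi-mapping reads were not given in the sources used here. A second deposited table held a normalized signal, which equalled the counts divided by DESeq2 size factors (largest relative gap 4.89e-15) and served as an alternative. The labels say that cells were sorted into lysis buffer and the study's methods that they were lysed in culture.

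edgeR 4.0.16 (R 4.3.3) was used with filterByExpr (minimum count 10), TMM factors and a robust quasi-likelihood fit with 1 term per group over 12 libraries. P-values were two-sided, adjusted by Benjamini-Hochberg over 11468 genes and called under 0.05. SE and 95% intervals come from the same fit, and levels are mean ± SD of 3 libraries. RPKM used exon lengths of GENCODE vM21, to which 24004 symbols (98.3%) were matched. Each length merges the exons of all annotated transcripts of a gene, so shares between genes depend on it. Log2 CPM used a prior count of 2.

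All 10 members were named. From each list of related genes the genes with the largest called rise and fall were named, all paralogues were named, and for likeness the genes with the highest correlation. The members and lists were chosen with earlier results of these data known. The labels give each library's mouse, and this pairing was checked on deviations from group means, where 18 same-mouse pairs of libraries correlated across genes at -0.0725 to 0.542 (12 over 0.1) and 36 pairs of different mice at -0.499 to 0.271. Alternatives were DESeq2 1.42.0, its size factors in edgeR, filters (none, or 10 counts in each library), a block for mouse in both tools, 1 surrogate variable (sva 3.50.0), the compared groups alone, removal of Rn45s, the authors' signal in limma 3.58.1 with a pseudocount of 1, and omission of each library and each mouse. The fit code was tested on simulated data.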

Additional observations from a re-analysis of the deposited data

How the results depend on the processing

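Of the counts of members called, those for iBET in IC (7 to 8) and for the interaction (0) stayed within 1.5 times the reported count under all alternatives, and that for iBET in Ova did so under all but 1, the omission of mouse B, which left 5 (range 5 to 8 when a library or a mouse was left out, and 7 to 9 otherwise). The 3 members lost there were Egr2, Nr4a1 and Btg2. The same omission called 1310 of 11484 tested genes for iBET in Ova, against 3593 of 11468 in the main fit, so calls fell over all genes. For IC in DMSO the count of 0 became 1 with the replicate block for mouse (Zfp36l1), with that block and mouse A of DMSO Ova left out (chosen after seeing the data), and with 1 surrogate variable (Ier2), and 2 with the block in DESeq2 (both genes). When a library or a mouse was left out it ranged from 0 to 1. Calls over all tested genes for IC in DMSO, 140 of 11468 in the main fit, also differed in these settings. The block called 315 of 11468, and 223 of 11667 with that library left out. The surrogate variable called 504 of 11468 and the block in DESeq2 425 of 11235. The omission of mouse A, which called Ier2, gave 159 of 11482. For IC in iBET the count of 0 became 1, Ier3 in each case, in DESeq2, with no filter, with the replicate block in edgeR, with the block in DESeq2, with the compared groups alone, with 1 surrogate variable and with the block added after seeing the data, and it ranged from 0 to 1 when a library or a mouse was left out. Over all tested genes, calls for IC in iBET were 40 of 11468 in the main fit and 107 of 10249 in DESeq2. They were 43 of 16759 with no filter, 85 of 11468 with the block and 177 of 11235 with it in DESeq2. The compared groups alone gave 99 of 11037, the surrogate variable 130 of 11468 and the added block 98 of 11667. The pairing by mouse in edgeR changed no other member call than the 4 given in the text (Zfp36l1 in DMSO for IC and in Ova for iBET, Ier3 in iBET, Nr4a1 in IC). The cause of these changes was not tested.

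No call changed its direction. Sign changes were seen in differences that were not called. Egr1 for IC in DMSO was 0.041 with the authors' signal and -0.32 to 0.11 without single libraries or mice. For IC in iBET, Egr2 was 0.0083 with 1 surrogate variable and 0.062 with the authors' signal (-0.37 to 0.46 on omission), Ier5 was -0.0085 with the replicate block and -0.00019 with it in DESeq2 (-0.079 to 0.063), Egr3 ran from -0.58 to 0.23 and Zfp36 from -0.042 to 0.22. Ier5 for IC in DMSO ran from -0.13 to 0.19. For iBET, Egr3 in Ova was 0.0090 with the block in DESeq2 (-0.44 to 0.39) and -0.014 in IC with 1 surrogate variable (-0.30 to 1.38), and Zfp36l1 in IC was 0.055 with 1 surrogate variable (-0.35 to 0.043). The interaction of Nr4a1 was 0.074 and of Zfp36 0.026 with the added block, and on omission it ran from -0.10 to 0.41 for Egr1, -0.70 to 0.13 for Egr2, -0.15 to 1.52 for Egr3, -0.18 to 0.14 for Ier5, -0.65 to 0.23 for Nr4a1 and -0.053 to 0.38 for Zfp36l1.

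Precision was limited by 3 mice and, for Egr3 and Nr4a1, by as few as 4 and 9 reads in a library. These 2 genes did not pass the filter of 10 counts in every library.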

Other observations

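For each member, the tested genes with the most similar log2 CPM over the 12 libraries were listed among genes with a mean count of at least 50. The libraries share 3 mice, and for most members the 6 iBET libraries lie apart from the 6 DMSO libraries, so these correlations mainly rank genes by their drug difference and are given as descriptions. The first gene was Carhsp1 for Egr1 (Pearson r 0.997), Acp2 for Egr2 (0.990), Hspa1a for Ier3 (0.985), Slc19a2 for Ier2 (0.982), Sbno1 for Ier5 (0.979), Adpgk for Zfp36 (0.991) and Tlcd2 for Btg2 (0.987). For the remaining members it was Ubap2l for Nr4a1 (0.937), Rassf2 for Zfp36l1 (0.945) and Hist1h4m for Egr3 (0.884). Over the 11 libraries left when mouse A in DMSO Ova was dropped, Acp2, Slc19a2, Tlcd2, Rassf2 and Hist1h4m kept the first place. For Ier2 the first 3 genes were Slc19a2, the inducible heat shock gene Hspa1b and Abtb2 over 12 libraries. Over 11 they were Slc19a2, Impdh1 and Hspa1b. Hspa1a was not among the first 3 genes for Ier3 over 11, and neither heat shock gene was among the first 3 for any other member.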
